A study of Homo sapiens with 12 samples.

Results

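The genes described here include DKK1, DKK2, DKK3, SFRP1 and WIF1, which encode secreted proteins of Wnt antagonist families. ROR1 and ROR2 encode Wnt receptors, and TCF7L2 and LEF1 encode DNA-binding partners of β-catenin. The last, AXIN2, encodes a feedback inhibitor and is a widely used readout of the pathway. The 10 genes were chosen by gene symbol, with earlier results of these data known. Of them, 10 of 10 were found among the 18404 genes measured, on 11 probe sets, since DKK3 has 2. RNA came from A673, an Ewing sarcoma cell line that carries the EWS-FLI1 fusion, and all 6 groups of 2 arrays share this background. Cells were left untreated at time 0, or were given DMSO, the drug vehicle, 5 nM actinomycin D or 50 nM actinomycin D for 24 h. Actinomycin D is a DNA-binding drug that blocks transcription. For the knock-down, cells were infected with lentivirus carrying an shRNA against FLI1 or, as the control, against lacZ, a bacterial gene that human cells lack, and were selected with puromycin. The series text calls this control scrambled. These arrays carry a label of 48 h, whereas the protocol describes 24 h with virus and then 48 h of selection. The knock-down rests on a single hairpin in a single cell line. The study describes the DMSO and 5 nM treatments as done in duplicate. For the other groups nothing says whether replicate arrays came from separate cultures. The p-values thus measure only the spread between arrays, which may be technical.

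In canonical Wnt signalling, a Wnt ligand bound to a Frizzled receptor and to LRP5 or LRP6 halts the breakdown of β-catenin, which then enters the nucleus and acts with TCF and LEF proteins on target genes. Antagonists act outside the cell at separate points: SFRP and WIF proteins bind the ligand, and DKK proteins such as DKK1 bind the LRP co-receptors. ROR1 and ROR2 are receptor tyrosine kinase-like proteins that bind WNT5A and signal without β-catenin. EWS-FLI1 joins the transactivation domain of EWSR1 to the DNA-binding domain of FLI1, an ETS factor that recognises a GGAA core and, as the fusion, also binds repeats of it.

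Values are log2 signals, so a difference of 1 is a 2-fold change, and a gene is said to have risen or fallen where its adjusted p was under 0.05 in limma over all genes. Errors are standard errors (SE) from limma, with n = 2 arrays per group and the spread pooled over all 6 groups. Signals of different genes come from different probes and were not compared with each other. The arrays held bulk RNA, in which fewer expressing cells and less RNA per cell cannot be told apart, and the normalization used sets all arrays to a common distribution, so that a general loss of RNA would not show. As a check of the knock-down, FLI1 itself read 7.30 and 7.08 on the FLI1 shRNA arrays against 8.63 and 8.45 on their controls, and so fell by 1.35 (SE 0.09, adjusted p 5.4e-06) to 39.2% of the control. At 5 nM the FLI1 change was −0.08 (adjusted p 0.48), and at 50 nM it was −0.95 (adjusted p 1.7e-05). With each array centred on ribosomal protein genes, the FLI1 change was −0.40 at 5 nM (adjusted p 0.0057) and −1.20 at 50 nM (adjusted p 3.2e-06). Whether FLI1 passed the test at 5 nM thus depended on the normalization. The 5 measured Ewing sarcoma markers averaged 9.30 to 10.37 over the arrays, the 4 epithelial markers 5.62 to 6.22, the 3 blood markers 4.69 to 5.29 and the 4 endothelial markers 5.41 to 5.74. From DMSO to 5 nM the blood mean went from 4.80 to 5.21 and the epithelial mean from 5.84 to 6.10. The Ewing mean, which includes FLI1 itself, was 10.27 with DMSO, 9.84 at 5 nM and 9.36 at 50 nM. It was 9.31 with FLI1 shRNA against 10.24 with lacZ shRNA. Most of its shift at 5 nM came from BCL11B (9.67 to 7.56). CD99 (12.11 to 12.19) and NKX2-2 (9.83 to 9.86) were slightly higher there, and STEAP1 (11.14 to 11.06) and FLI1 (8.60 to 8.52) slightly lower. At 50 nM CD99 was 12.35, while the other Ewing markers were lower than with DMSO. The part of these shifts in the results below was not tested.

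After FLI1 knock-down, 2 of the 10 genes rose (DKK1 and ROR2) and 1 fell (ROR1), where 14.6% of all genes rose and 9.28% fell. The antagonist DKK1 rose more than any other of the 18404 genes. ROR1 and ROR2, which share a ligand, moved in opposite directions. The other 7 genes did not pass the test. With 5 nM actinomycin D, 2 of 10 rose (DKK1 and AXIN2; 30.3% of all genes rose) and 5 fell (DKK2, LEF1, TCF7L2, ROR1 and ROR2; 23% of all genes fell). With 50 nM, 3 of 10 rose (DKK1, DKK3 and WIF1; 25.8% of all genes) and the same 5 fell (23.3% of all genes). Both doses were compared with the same 2 DMSO arrays.

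DKK1 encodes a secreted protein that binds LRP6 and keeps it from the Wnt-Frizzled complex. Its signal was 5.92 and 6.05 in untreated cells, 5.81 and 5.81 with DMSO, and 5.99 and 6.04 with lacZ shRNA. It was 10.68 and 10.55 with FLI1 shRNA, 8.27 and 7.72 with 5 nM actinomycin D, and 6.61 and 6.60 with 50 nM. Both arrays of each of the last 3 groups lay above all 6 arrays of the control groups, and no group among the 3 overlapped another. The rise after knock-down was 4.61 (SE 0.14, adjusted p 5.4e-08), or 24.4-fold. The rise at 5 nM was 2.18 (SE 0.14, adjusted p 3.3e-07), or 4.54-fold, and ranked 27 among the rises of that comparison. At 50 nM the rise was 0.80 (adjusted p 9.4e-04), or 1.74-fold, and from the lower to the higher dose the signal fell by 1.39 (adjusted p 9.7e-06). In the order of group levels FLI1 shRNA, 5 nM and 50 nM each differed from the next, and 50 nM lay 0.60 above lacZ shRNA (adjusted p 0.0057), whereas lacZ shRNA, untreated and DMSO did not differ beyond their spread.

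The 250 bases before the start of DKK1 are shown because FLI1 knock-down changed this gene most, and the capitals mark the GGAA core (TTCC on the other strand). In GRCh38.p14 the window is chr10:52314031-52314280 on the plus strand.
DKK1: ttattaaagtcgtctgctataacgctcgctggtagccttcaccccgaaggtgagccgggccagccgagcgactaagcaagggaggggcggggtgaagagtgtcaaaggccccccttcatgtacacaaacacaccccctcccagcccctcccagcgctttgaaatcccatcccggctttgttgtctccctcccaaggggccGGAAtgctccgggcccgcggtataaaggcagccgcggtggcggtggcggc
It holds 1 GGAA, with its first base at −50 from the start, as part of CCGGAA, and no 2 adjacent GGAA. Searched on both strands, GGAA occurs in 92.7% of the 35116 RefSeq windows of this length (median 3 sites), CCGGAA in 14.5% and 2 adjacent GGAA in 3.06%. A GGAA inside a CCGGAA or a repeat was counted in each class. The window's GC content was 62.8% against a median of 58% over all windows.

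DKK2 is a relative of DKK1 that can inhibit or, with LRP6 in excess, activate the pathway. The signal of DKK2 was 11.74 and 11.79 in untreated cells, 11.82 and 11.70 with DMSO, 11.71 and 11.69 with lacZ shRNA and 11.73 and 11.77 with FLI1 shRNA. It was 9.57 and 9.60 with 5 nM and 11.29 and 11.34 with 50 nM. The 4 groups without drug lay together, the 50 nM arrays lay just under them, and the 5 nM arrays lay far below. The change after knock-down was 0.05 (95% interval −0.11 to 0.20, adjusted p 0.68). DKK2 fell by 2.17 at 5 nM (SE 0.07, adjusted p 4.2e-09), which left 22.2% of the DMSO level. It fell by 0.45 at 50 nM (adjusted p 4.0e-04), 1.73 above 5 nM (adjusted p 1.7e-08). Neighbours among the drug-free groups did not differ beyond their spread.

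The other 3 genes of the antagonist families stayed within 0.48 log2 units across group means. DKK3, a divergent member of the DKK family, read from 6.51 to 7.11 over the arrays, SFRP1, a decoy that carries a Frizzled-like ligand-binding domain, from 5.63 to 6.17, and WIF1, which binds Wnt ligands through its WIF domain, from 4.14 to 4.81. In each of the 3, no neighbour in the order of group levels differed beyond its spread. After knock-down the change was 0.21 for DKK3 (adjusted p 0.22), −0.29 for SFRP1 (95% interval −0.54 to −0.04, adjusted p 0.088) and 0.12 for WIF1 (adjusted p 0.57). At 5 nM none of the 3 passed the test, with changes of 0.08, 0.10 and 0.27 in the same order. At 50 nM DKK3 rose by 0.33 (6.93 and 7.11 against 6.56 and 6.83, adjusted p 0.035) and WIF1 rose by 0.48 (4.78 and 4.81 against 4.14 and 4.49, adjusted p 0.012), while SFRP1 changed by 0.24 (adjusted p 0.094). The second DKK3 probe set, with a mean of 5.04, changed by 0.24 at 50 nM (adjusted p 0.31) and by −0.16 after knock-down. Both calls were lost, and the count of risen genes went from 3 to 1, without the first DMSO array, without the second 50 nM array, and with the arrays centred on 40 ribosomal protein genes (DKK3 0.07, WIF1 0.23). The DKK3 call was also lost with the mean over both probe sets (0.28), with all rows of the table tested and in a fit of the 4 arrays alone.

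ROR1, a receptor that is abundant in embryonic tissue and in several tumours, fell in all 3 treatments. Its signal was 9.54 and 9.60 in untreated cells, 9.52 and 9.52 with DMSO, and 9.68 and 9.61 with lacZ shRNA. It was 8.43 and 8.53 with FLI1 shRNA, 7.57 and 7.33 with 5 nM, and 8.73 and 8.77 with 50 nM. All 6 control arrays lay above all 6 treated arrays. After knock-down it fell by 1.17 (SE 0.09, adjusted p 7.6e-06), to 44.5% of lacZ shRNA, and ranked 64 among the falls of that comparison. ROR1 is on the list of genes that the study chose from these arrays as reduced by the knock-down, so this fall is not independent evidence of its direction. At 5 nM it fell by 2.07 (adjusted p 1.8e-08), to 23.8% of DMSO, and at 50 nM it fell by 0.77 (adjusted p 4.1e-05), to 58.6%. The 50 nM level lay 1.30 above the 5 nM level (adjusted p 4.2e-07) and 0.27 above FLI1 shRNA (adjusted p 0.023), and the 3 control groups did not differ beyond their spread.

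ROR2, the second receptor of the family, which takes part in limb and skeletal development, rose after knock-down and fell with the drug. Its arrays read 8.33 and 8.33 untreated, 8.42 and 8.24 with DMSO, 8.06 and 8.14 with lacZ shRNA and 8.66 and 8.72 with FLI1 shRNA. They read 6.45 and 6.60 with 5 nM and 7.40 and 7.39 with 50 nM. The FLI1 shRNA arrays were the highest and the 5 nM arrays the lowest, with no overlap on either side. The rise after knock-down was 0.59 (SE 0.08, adjusted p 4.4e-04), or 1.51-fold. FLI1 shRNA also lay 0.36 above DMSO (adjusted p 0.0085), whereas lacZ shRNA differed from untreated cells by −0.23 without passing the test (adjusted p 0.17). ROR2 fell by 1.81 at 5 nM (adjusted p 2.9e-08), to 28.6% of DMSO, and fell by 0.94 at 50 nM (adjusted p 6.1e-06), with 50 nM 0.87 above 5 nM (adjusted p 5.6e-06).

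The windows before ROR1 and ROR2 are shown side by side because knock-down moved these receptors apart, again with GGAA or TTCC in capitals. In GRCh38.p14 they are chr1:63773767-63774016 on the plus strand and chr9:91950229-91950478 on the minus strand.
ROR1: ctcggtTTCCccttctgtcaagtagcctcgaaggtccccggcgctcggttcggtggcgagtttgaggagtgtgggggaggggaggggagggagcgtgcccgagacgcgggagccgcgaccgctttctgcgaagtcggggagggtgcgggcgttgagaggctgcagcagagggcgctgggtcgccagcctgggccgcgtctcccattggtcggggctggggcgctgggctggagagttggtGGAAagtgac
ROR2: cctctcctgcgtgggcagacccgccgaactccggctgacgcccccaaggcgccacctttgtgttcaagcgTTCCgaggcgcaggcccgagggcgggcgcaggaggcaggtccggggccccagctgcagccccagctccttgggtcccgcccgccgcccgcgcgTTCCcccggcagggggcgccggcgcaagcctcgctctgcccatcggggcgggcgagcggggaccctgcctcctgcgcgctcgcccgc
ROR1 holds 2 GGAA, with their first base at −244 and −10 from the start, and ROR2 holds 2, at −180 and −87. None of them is part of CCGGAA or adjacent to another GGAA. GC content was 69.2% for ROR1 and 78% for ROR2. The TCF/LEF motif CTTTGAT, present in 2.26% of all windows, was in neither of these nor in the DKK1 window. In all, windows of 6 of the 10 genes are reported here, 8 windows in total. The 3 of these genes not shown hold 1 (WIF1), 5 (LEF1) and 2 to 7 (TCF7L2, 3 windows) GGAA. There were 2 adjacent GGAA in 1 TCF7L2 window. No window of DKK2, DKK3, SFRP1 or AXIN2 is reported here.

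TCF7L2, the nuclear factor that carries much of the β-catenin response, read 9.07 and 9.27 untreated, 8.99 and 8.99 with DMSO, 8.90 and 8.75 with lacZ shRNA and 8.97 and 9.11 with FLI1 shRNA. It read 7.28 and 7.32 with 5 nM and 8.03 and 8.12 with 50 nM. The drug arrays of both doses lay below all 8 drug-free arrays, and the 5 nM arrays were the lower. Its change after knock-down was 0.22 (95% interval 0.02 to 0.42, adjusted p 0.11). TCF7L2 fell by 1.69 at 5 nM (adjusted p 8.7e-08), to 31.0% of DMSO, and fell by 0.92 at 50 nM (adjusted p 1.5e-05), with 50 nM 0.77 above 5 nM (adjusted p 3.0e-05).

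LEF1, a TCF relative that is itself a Wnt target, read 6.70 and 6.77 untreated, 6.81 and 6.86 with DMSO, 6.71 and 6.57 with lacZ shRNA and 6.50 and 6.69 with FLI1 shRNA. With 5 nM the arrays read 5.81 and 6.02 and with 50 nM 6.35 and 6.02, so that the doses overlapped each other and lay below all drug-free arrays. LEF1 fell by 0.92 at 5 nM (adjusted p 6.8e-05) and by 0.65 at 50 nM (adjusted p 0.0012), and the difference between the doses did not pass the test (0.27, adjusted p 0.095), though it did with each array centred on ribosomal protein genes (0.34, adjusted p 0.044). After knock-down the change was −0.04 (95% interval −0.31 to 0.22, adjusted p 0.83).

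AXIN2, a scaffold of the complex that degrades β-catenin, rose only with 5 nM among the 3 treatments. Its signal was 8.12 and 7.90 with 5 nM, against 7.33 and 7.34 with DMSO, 7.23 and 7.23 untreated, 7.04 and 7.21 with 50 nM, 7.09 and 7.21 with lacZ shRNA and 7.09 and 7.05 with FLI1 shRNA. The 5 nM arrays were the highest, and all other neighbouring groups did not differ beyond their spread. The rise at 5 nM was 0.68 (SE 0.09, adjusted p 8.7e-05), or 1.60-fold, and from 5 nM to 50 nM the signal fell by 0.88 (adjusted p 1.0e-05). The change at 50 nM was −0.21 (adjusted p 0.078), which became −0.46 with ribosomal protein centring and passed the test there (adjusted p 0.0015), and after knock-down it was −0.08 (95% interval −0.28 to 0.12).

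**Figure D1:**
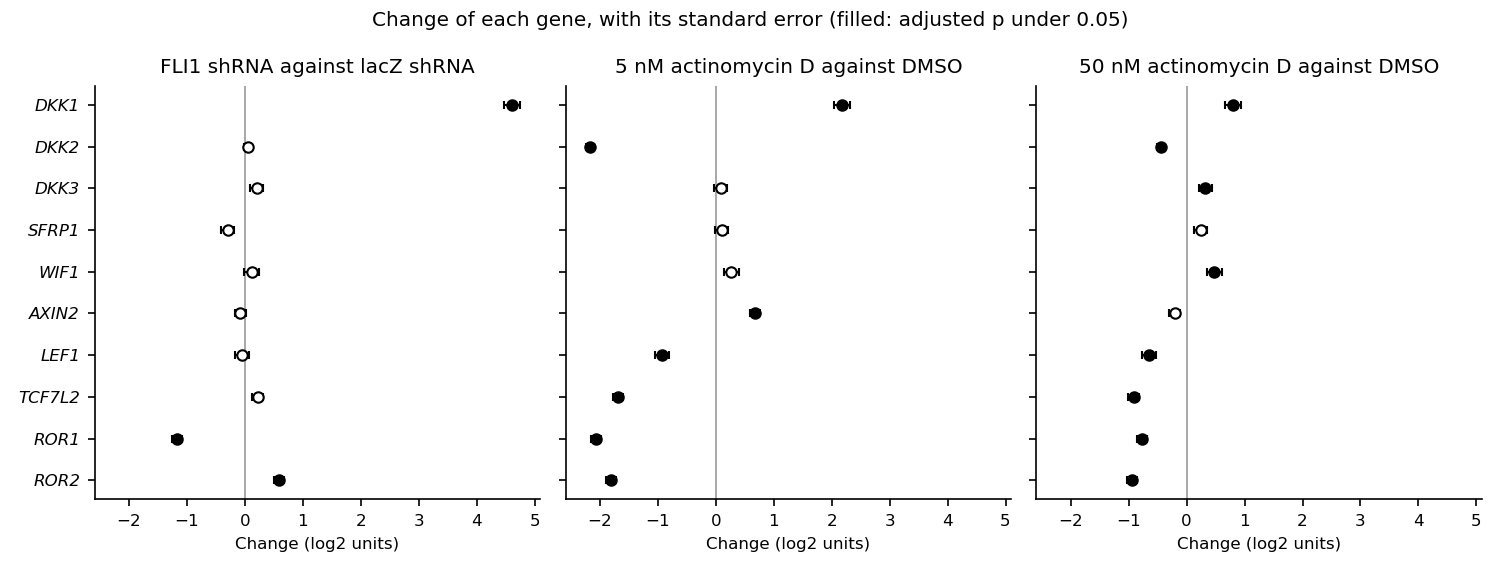
Change of each of the 10 genes in log2 units after FLI1 shRNA (against lacZ shRNA) and with each dose of actinomycin D (against DMSO). Points are differences of group means with standard errors, filled where the adjusted p was under 0.05; DKK1 is the only gene of the 10 that rose in all 3 panels, and ROR1 the only one that fell in all 3.

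Under the stricter threshold of the study, a fold over 2 with an adjusted p under 0.01, knock-down called DKK1 up (1.21% of all genes) and ROR1 down (0.598%), and 5 nM called DKK1 up (2.64%) and DKK2, TCF7L2, ROR1 and ROR2 down (7.86%). At 50 nM it called none of the 10 (5.98% of all genes in either direction), while by limma at an unadjusted p under 0.05 there were 9 (56.2%). The direct comparison of doses called DKK2 and ROR1 higher at 50 nM (4.33%) and DKK1 lower (6.65%), and at an adjusted p under 0.05 it called 4 higher (21.6%) and 2 lower (23.1%). The median change of the 10 genes was 0.08 after knock-down, −0.42 at 5 nM and −0.33 at 50 nM, against −0.01, 0.12 and 0.10 over all genes. Centring on ribosomal protein genes moved the median of all genes to −0.20 at 5 nM and −0.15 at 50 nM, and the genes called at 5 nM went from 5581 higher and 4234 lower to 1866 higher and 7527 lower. None of the 31 calls of the 10 genes over the 7 comparisons changed direction with it.

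The control comparisons called none of the 10 genes. Between DMSO and untreated cells the background was 0.00543% higher and 0% lower, and in limma 0 of the 10 had an unadjusted p under 0.05 (7.51% of all genes). Between lacZ shRNA and untreated cells, which differ by virus, selection and time at once, the background was 0.815% higher and 2.26% lower, and 2 of the 10, ROR2 (−0.23) and TCF7L2 (−0.35, adjusted p 0.066), had an unadjusted p under 0.05 (16.8% of all genes). TCF7L2 passed there with dim genes left out and with trend and robust estimation of the spread.

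Whether the knock-down and low-dose responses differed was tested as a difference of differences, with control arrays that the responses do not share. The knock-down response was measured in infected, selected cells labelled 48 h, and the drug response at 24 h. Effects of time, infection and selection on the responses cannot be told apart here from those of the treatments. Of the 10 genes 6 had a higher response to knock-down (22.8% of all genes) and 1, AXIN2, a lower one (23.7%). For DKK1 both treatments raised the gene, and the knock-down rise was 2.42 larger (SE 0.20, adjusted p 3.6e-06). ROR1 fell in both, and its response to knock-down lay 0.90 above that to 5 nM, the deeper fall (SE 0.12, adjusted p 1.4e-04). ROR2 rose in one and fell in the other, a difference of 2.40 (SE 0.12, adjusted p 1.5e-07). DKK2, TCF7L2 and LEF1, which fell at 5 nM and did not pass after knock-down, differed by 2.22, 1.91 and 0.88, and AXIN2 by −0.75 (adjusted p 6.6e-04). DKK3 (0.13), WIF1 (−0.15) and SFRP1 (−0.39, adjusted p 0.064) did not pass.

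**Figure D2:**
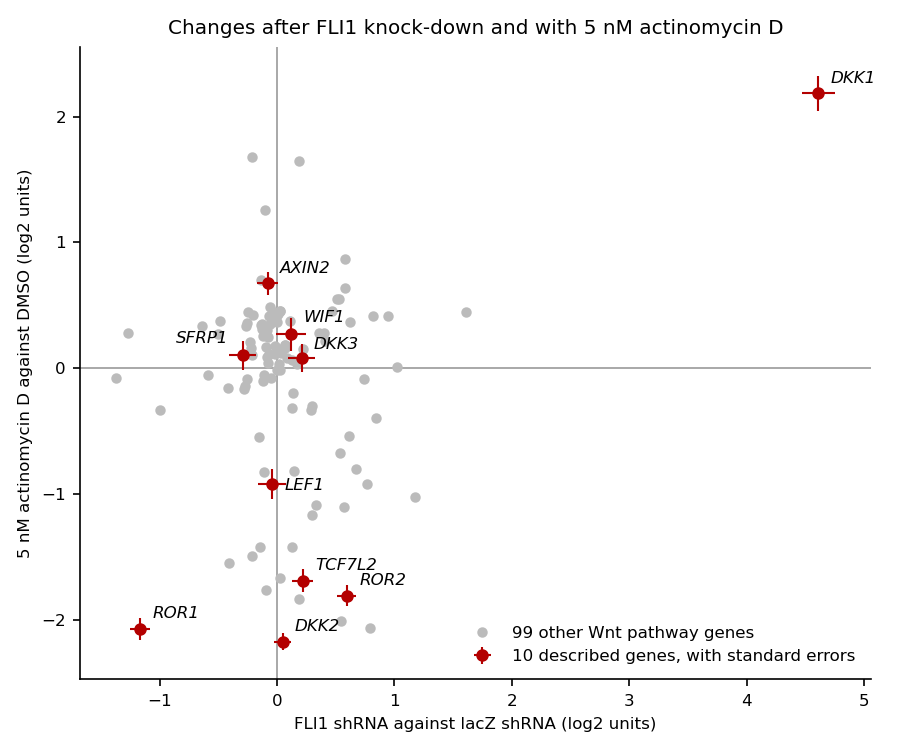
Change at 5 nM actinomycin D (vertical axis, log2 units) against change after FLI1 shRNA (horizontal axis, log2 units) for the 10 genes (red, with standard errors) and 99 other Wnt pathway genes (grey). DKK1 lies alone at the upper right (4.61 and 2.18), ROR1 at the lower left (−1.17 and −2.07), and DKK2 and TCF7L2 low on the vertical axis with knock-down changes of 0.05 and 0.22.

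For each gene whose group means spanned at least 1 log2 unit, the genes with the most similar pattern were ranked by Pearson correlation over the 12 arrays among 4289 genes with such a span; arrays of a group are not independent points, and no p is given. Nearest to DKK1 were LOX (0.988), PLAU (0.981) and CA12 (0.980). Nearest to DKK2 were SPART (0.998), GPHN (0.998) and IGF1R (0.997), to TCF7L2 RANBP10 (0.991), EHMT1 (0.991) and TRERF1 (0.990), to ROR1 ST6GAL1 (0.994), ELOVL5 (0.990) and SOX6 (0.982), and to ROR2 NLK (0.994), NOVA1 (0.993) and ANKS1A (0.993). Among these 5 genes (DKK1, DKK2, TCF7L2, ROR1 and ROR2), the correlation was highest between TCF7L2 and ROR2 (0.972) and lowest between DKK1 and ROR1 (−0.623).

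The 10 genes differ widely in the length of the gene, from DKK1 at 3.38 kb to ROR1 at 407 kb in the RefSeq annotation of GRCh38.p14. All protein-coding genes with a span, 16894, were put into 10 equal bins of length for comparison. At 5 nM the median change was 0.24 in the shortest bin, 0.10 in the bin of AXIN2 (33.1 kb), −0.43 in that of DKK2 (115 kb) and LEF1 (121 kb), and −0.50 in the longest, which holds TCF7L2 (217 kb), ROR2 (228 kb) and ROR1. The 5 genes that fell were thus the 5 longest of the 10. Within their own bins, DKK2 ranked at percentile 1.36, ROR1 at 7.28, ROR2 at 13.1, TCF7L2 at 15.5 and LEF1 at 30.2, whereas DKK1 stood at percentile 99.8 and AXIN2 at 94.2. At 50 nM the bin medians were closer together, 0.22 in the shortest and −0.0022 in the longest. There ROR2, TCF7L2 and ROR1 ranked at percentiles 7.10, 7.40 and 11.2 of the longest bin. LEF1 ranked at 20.1 and DKK2 at 28.5 of their bin. The genes that rose at 50 nM, DKK1, WIF1 and DKK3, stood at percentiles 97.3, 97.3 and 86.4 of theirs. The part of length in these changes was not tested.

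The lists by role came from general knowledge with earlier results of these data known, so their shares are a description only. Of the 102 other Wnt pathway genes listed, 99 were measured. After knock-down 38 of them passed the test (38.4%, against 23.9% of all genes), 27 higher and 11 lower, with a median of 0.00. Over all genes 14.6% rose and 9.28% fell. Among nuclear factors 6 of 10 rose and 1 fell, including the corepressors TLE4 (1.17, adjusted p 4.3e-06) and TLE1 (0.82), and TCF7L1 (0.79), a TCF that mostly represses. Of 16 receptors and co-receptors 5 rose and 3 fell: FZD6 rose by 1.02, KREMEN1, a DKK1 receptor, rose by 0.84, and FZD8 fell by 0.59. Of the 10 genes of the planar polarity and non-canonical arm, 5 rose and 0 fell, with PRICKLE1 at 0.94, VANGL1 at 0.61 and DAAM1 at 0.57.

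Of the 9 other secreted antagonists 2 rose after knock-down, SOSTDC1 by 0.62 and FRZB by 0.53. The signal of SOSTDC1 was low, 4.76 and 4.51 against 3.99 and 4.03, and has no detection call. Among the 9, 1, CER1, fell by 1.27 (8.62 and 8.87 against 10.04 and 9.98). AMER2, which recruits APC to the membrane, fell by 1.37, while 4 of the 15 transducers rose, BTRC by 0.54 and DVL3 by 0.36 among them. CER1 and AMER2 stand, like ROR1, on the list that the study chose from these arrays. Among 10 canonical targets CD44 rose by 1.61 (it was also the only one of the 99 to pass between lacZ shRNA and untreated cells, at 0.34), and CCND1 and MYC fell by 0.99 and 0.64. In the R-spondin arm, the receptors LGR5 and LGR4 rose by 0.76 and 0.67 and the ligand RSPO2 fell by 0.42. Of 19 Wnt ligands 1 rose, WNT2B by 0.51, and 1 fell, WNT5A, the ROR ligand, by 0.22 (adjusted p 0.046).

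With 5 nM, 57 of the 99 passed the test, 31 higher and 26 lower, against 53.3% of all genes in either direction. Over all genes 30.3% rose and 23% fell. Both LRP co-receptors fell, LRP6 by 1.76 and LRP5 by 1.67 (7.83 and 7.59 against 9.41 and 9.35), while FZD7 rose by 1.65. Of the 15 transducers 7 fell, among them BTRC (2.01), GSK3B (1.83) and TNKS (1.42), and 1 rose. TCF7L1 fell by 2.07 and TLE4 by 1.02, and BCL9, a β-catenin cofactor, rose by 0.64. Of 9 other antagonists 4 rose and 0 fell, with SFRP2 at 1.26, FRZB at 0.55 and SOST at 0.40. Of 19 ligands 9 rose and 0 fell, led by WNT3 at 0.70. The ligand median was 0.35, and ribosomal protein centring moved the median of all genes from 0.12 to −0.20 at 5 nM. Which of these rises pass with that centring is not reported here. BAMBI, a pseudoreceptor and Wnt target, rose by 1.68, and APCDD1, a target that encodes a membrane inhibitor, fell by 1.55. In the R-spondin arm ZNRF3, a ligase that removes Frizzled from the surface, fell by 1.42, and LGR5 and LGR4 fell by 0.92 and 0.80.

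With 50 nM, 66 of the 99 passed, 26 higher and 40 lower, against 49% of all genes in either direction. Over all genes 25.8% rose and 23.3% fell. Nuclear factors fell in 8 of 10 (TLE4 by 1.47, TCF7L1 by 1.45, TLE3 by 1.11) and transducers in 10 of 15 (AXIN1 by 1.28, APC by 1.21, BTRC by 1.15). The ligand WNT5A fell by 0.93, the receptor FZD8 fell by 1.23 and FZD4 fell by 1.25. MYC fell by 1.52 and the polarity gene VANGL1 fell by 1.68. Of 9 other antagonists 7 rose, SOST by 0.59, SFRP5 by 0.59 and NOTUM by 0.50 among them. The median of the 9 was 0.47, and ribosomal protein centring moved the median of all genes from 0.10 to −0.15 at 50 nM. Which of these rises pass with it is not reported here either. Between the doses 47 of the 99 differed (44.7% of all genes), 18 higher at 50 nM and 29 lower. Over all genes 21.6% were higher at 50 nM and 23.1% lower. From 5 nM to 50 nM BAMBI fell by 2.71, FZD7 fell by 1.95 and MYC fell by 1.86.

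**Figure D3:**
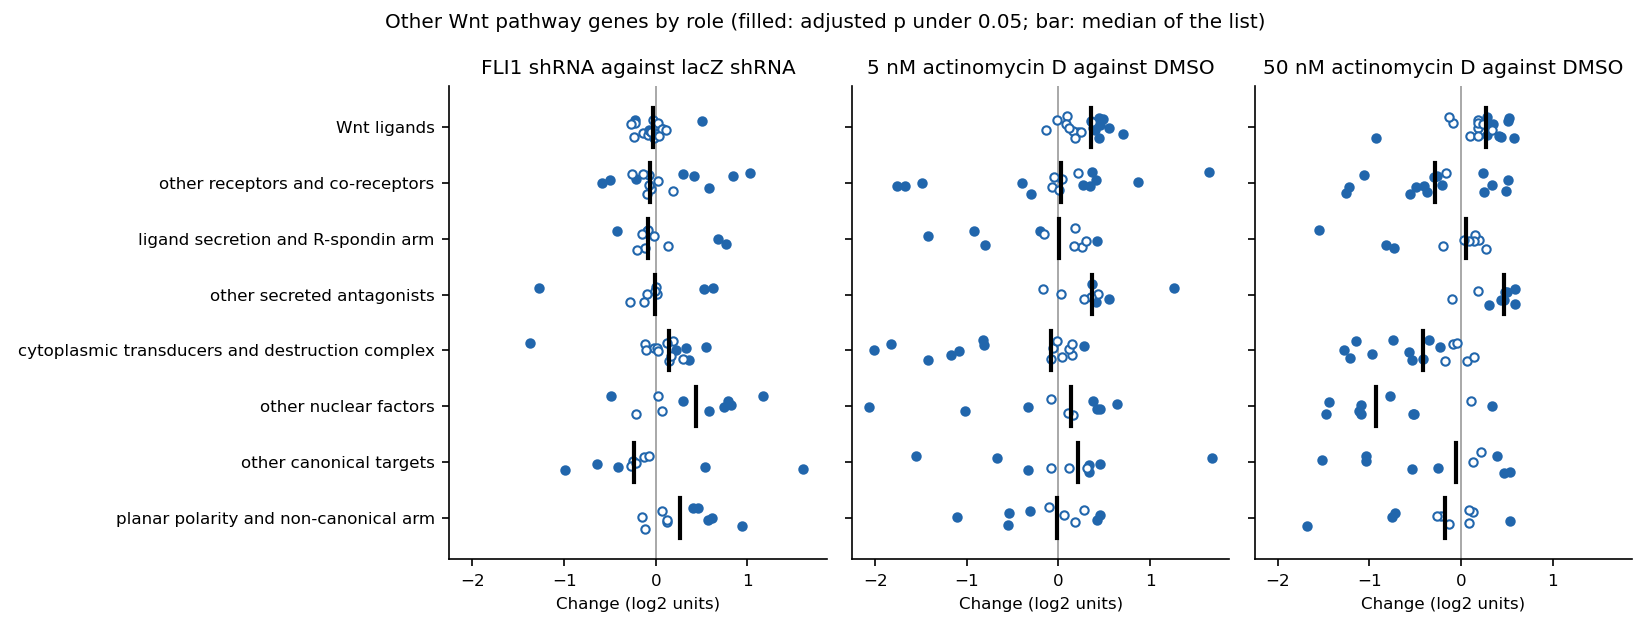
Changes of the 99 other Wnt pathway genes, in log2 units, by role, for the knock-down and for both doses. Points are genes, filled where the adjusted p was under 0.05, and bars are list medians; the nuclear factors have a median of 0.44 after knock-down and −0.93 at 50 nM.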

How the data were processed

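RNA of A673 cells was measured on 12 Affymetrix HuGene 1.0 ST arrays, 2 in each of 6 groups taken from the labels. As deposited, the values are log2 signals, made by the authors with the affy package by background correction and RMA, and they were not altered. RMA gives no call of detection, so whether a low signal lies above background was not tested. Array medians were 6.67 to 6.83, arrays of a group correlated at 0.995 to 0.998, 2 arrays per group limit the precision, and 0 value columns lacked a sample.

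The value table has 32321 rows, of which the platform annotation gives 19158 a single gene symbol, 1388 several and 11775 none. Where several probe sets named a gene (637 genes), the one with the highest mean was used, which left 18404 genes. A mean per group was fitted to all 12 arrays with limma 3.58.1 in R 4.3.3 (6 residual and 4.45 prior degrees of freedom), with Benjamini-Hochberg adjustment of each comparison over all genes. The fit was tested on simulated data.

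The members and lists were chosen with earlier results of these data known. Named were all 10 genes, FLI1, up to 3 genes per role list and comparison with the largest change at an adjusted p under 0.05 and no overlap of arrays, and the 3 genes most correlated with each member. CSNK1E, PORCN and TCF7 were not analysed here. Spans and promoter windows of 250 bases came from RefSeq tables of GRCh38.p14. Alternatives were a replicate block, a fit per comparison on its own arrays, a filter on dim genes (40th percentile of mean signal), the mean over probe sets, all rows, a repeated quantile normalization, trend and robust options in eBayes, centring on 40 ribosomal protein genes, and each array left out in turn.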

Additional observations from a re-analysis of the deposited data

Results flagged for a closer look

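For 5 results among the 10 genes, both arrays of one treatment lay above their controls and both of another lay below, and the difference between the responses passed its own test. DKK2 changed by 0.05 after knock-down, which did not pass, and fell at 5 nM, a difference of 2.22 (SE 0.10, adjusted p 1.0e-07). TCF7L2, whose knock-down change of 0.22 did not pass either, had a difference of 1.91 (SE 0.13, adjusted p 8.9e-07). ROR2 rose after knock-down and fell at 5 nM, a difference of 2.40 (SE 0.12, adjusted p 1.5e-07). AXIN2 had a knock-down response 0.75 below its response at 5 nM (difference −0.75, adjusted p 6.6e-04), and its response at 50 nM differed from that at 5 nM by −0.88 (adjusted p 1.0e-05). Groups of 2 arrays are too small for a test of outlying arrays.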

How the results depend on the processing

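Of 31 called values of the 10 genes, 29 kept their call under every alternative that tested the gene, and none changed sign. The exceptions were DKK3 and WIF1 at 50 nM: the count of genes higher at 50 nM, 3, became 1 with dim genes left out (which drops DKK3, SFRP1, WIF1 and LEF1 from the test) and with ribosomal protein centring, and ranged from 1 to 3 with an array left out (1 without the first DMSO or the second 50 nM array). Between lacZ shRNA and untreated cells the count lower, 0, became 1 (TCF7L2) with dim genes left out and with trend and robust estimation. Replicate numbers did not pair the arrays (correlations of deviations −0.453 to 0.335); with the replicate block the count with a lower response to knock-down than to 5 nM went from 1 to 2 (SFRP1 added, −0.39), it ranged from 1 to 2 with an array left out (2 without the first 5 nM or the first lacZ shRNA array), and the block changed no other call. With an array left out, values that then passed were WIF1 at 5 nM (0.45 without the second DMSO array) and, without the second 50 nM array, AXIN2 at 50 nM (−0.30) and LEF1 between doses (0.43). AXIN2 at 50 nM also passed with dim genes left out (−0.21, adjusted p 0.047) and with ribosomal protein centring (−0.46), which also passed LEF1 between doses (0.34), and DKK3 between doses passed with quantile normalization (0.28, adjusted p 0.039).

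Signs changed only in values that were not called. At 5 nM DKK3 became −2.92e-06 with the mean over probe sets, −0.00358 with quantile normalization and −0.24 with ribosomal protein centring, SFRP1 became −0.0205 and −0.22 with the last 2, and WIF1 −0.0510 with the last. With that centring SFRP1 at 50 nM became −0.0073, WIF1 in the difference of responses 0.19, and, between DMSO and untreated cells, DKK3 −0.0121 and ROR2 −0.0280. In that comparison DKK3 was −0.0405 with the mean over probe sets and ROR2 −0.0201 with quantile normalization, and DKK3 was 0.0930 between lacZ shRNA and untreated cells with the mean over probe sets. With an array left out, ranges that crossed 0 were, after knock-down, −0.0370 to 0.27 for WIF1 and −0.14 to 0.0522 for LEF1; at 5 nM, −0.0486 to 0.21 for DKK3 and −0.0343 to 0.24 for SFRP1; between DMSO and untreated cells, −0.0678 to 0.0477 for DKK2, −0.11 to 0.15 for DKK3, −0.21 to 0.14 for WIF1 and −0.0871 to 0.0907 for ROR2; between lacZ shRNA and untreated cells, −0.0382 to 0.0926 for DKK1, −0.17 to 0.0129 for DKK3 and −0.11 to 0.20 for WIF1; and in the difference of responses, −0.0061 to 0.26 for DKK3 and −0.33 to 0.0252 for WIF1. The cause was not tested. A lone array left in a group was assumed to vary like the other groups. Signals near the low end, such as those of WIF1, have no detection call.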
